A study of Mus musculus with 105 samples.

Results

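The 10 genes described here, Zp1, Zp2, Zp3, Gdf9, Bmp15, Nlrp5, Ooep, Figla, Nobox and Oosp1, are genes known for their transcription in mouse oocytes. They were chosen by name, each symbol was found on 1 row of the count table, and they are 10 of its 53379 gene rows. Poly(A) RNA had been sequenced from 105 mouse libraries of C57BL/6 strain, in a study of splice junctions between exons and transposable elements in tumour cells and healthy tissues. Of these, 48 libraries came from 12 tissues of wild-type (WT) female mice, 4 libraries a tissue: ovary, brain, thymus, spleen, LN as the labels write it, skin, lung, heart, liver, kidney, stomach and colon. No age of these mice is used here. Another 45 came from 4 cultured tumour lines, the melanoma lines B16 and B16OVA, the fibrosarcoma line MCA101OVA and the colon adenocarcinoma line MC38. Each line had WT, Ctrl and Setdb1 knockout (KO) groups of 3 libraries, or of 6 in B16OVA, and the growth protocol names puromycin in the medium of all of them. Neither the content of the Ctrl cells nor the number of clones in a KO group is known from the labels. The rest were 5 melanocyte cultures from new-born mice and 7 single WT tumour libraries with the code B176, which entered no fit. Such codes, called runs here, are the first part of the library name, and the labels do not say what they stand for.

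The oocyte grows inside a follicle, surrounded by granulosa cells, and builds both its coat and the stores of the early embryo before it is ovulated. ZP1, ZP2 and ZP3 are the glycoproteins of the mouse zona pellucida, the coat that sperm must cross. GDF9 and BMP15 are secreted growth factors of the TGF-beta family through which the oocyte acts on granulosa cells. NLRP5 and OOEP belong to the subcortical maternal complex, which the early embryo needs for its first divisions. FIGLA and NOBOX are transcription factors of the young oocyte: FIGLA, a basic helix-loop-helix protein, is required for transcription of the zona genes, and NOBOX, a homeodomain protein, for that of other oocyte genes. Oosp1 encodes a protein that oocytes secrete.

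Ovary libraries held 54311805 to 74913611 counts, all 48 tissue libraries 53591239 to 254103370, the 45 tumour libraries 17186211 to 50393024, melanocytes 19863405 to 30593253 and run B176 36190860 to 58176033. Levels are given as CPM, the gene's counts scaled to a common library total, so that 1 CPM is 54.3 to 74.9 counts in ovary. A defining gene is reported for 10 of the 11 other tissues, LN not among them, such as Alb in liver or Rag1 in thymus, and each of the 10 was higher in every library of its own tissue than in any library of another. Setdb1, the targeted gene, had means of 62.2, 70.4, 68.0 and 101 CPM in the Ctrl groups of B16, B16OVA, MCA101OVA and MC38 and of 17.1, 33.5, 27.9 and 73.2 CPM in the groups labelled KO. Libraries labelled KO and Ctrl overlapped in B16OVA (15.6 to 49.9 against 21.1 to 99.4 CPM) and in MC38 (60.05 to 85.3 against 54.9 to 125 CPM), and did not in B16 and MCA101OVA.

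The 4 ovary libraries did not hold the same cell types in the same amounts. The oviduct list (5 genes, all in the table) summed to 1643, 2094 and 1921 CPM in ovary libraries 1, 2 and 3, and to 3.23 CPM in library 4, where its leading gene Ovgp1 stood at 2.42 CPM. The fat list (5 genes) summed to 8958, 2441, 4542 and 29.7 CPM in libraries 1 to 4, with Adipoq at 0.0685 CPM and Lep at 0 in library 4, where Plin1, at 27.8 CPM, made up most of the sum. Library 4 thus held far fewer oviduct and fat transcripts than the other 3. It was also the only ovary library of run D804, while libraries 1 to 3 came from run D812, so that run and makeup cannot be told apart for it. The granulosa list (12 genes) summed to 1410, 3092, 2891 and 5692 CPM, and the theca and luteal list (9 genes) to 2542, 4733, 3432 and 23040 CPM. By sum, library 1 was lowest in both of these follicle and gland lists and highest in fat and in blood. The theca and luteal sum was led by Hsd3b1 and Cyp11a1. Cyp17a1, Star, Insl3, Akr1c18, Ptgfr and Sfrp4 of that list were not lowest in library 1, nor was Inhbb of the granulosa list. Star, for example, stood at 137, 134, 58.8 and 2007 CPM in libraries 1 to 4. The blood list (4 haemoglobin and haem synthesis genes) summed to 212, 48.2, 83.4 and 22.9 CPM. The surface and stroma list (8 genes) summed to 6505, 3903, 4537 and 1833 CPM.

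**Figure D1:**
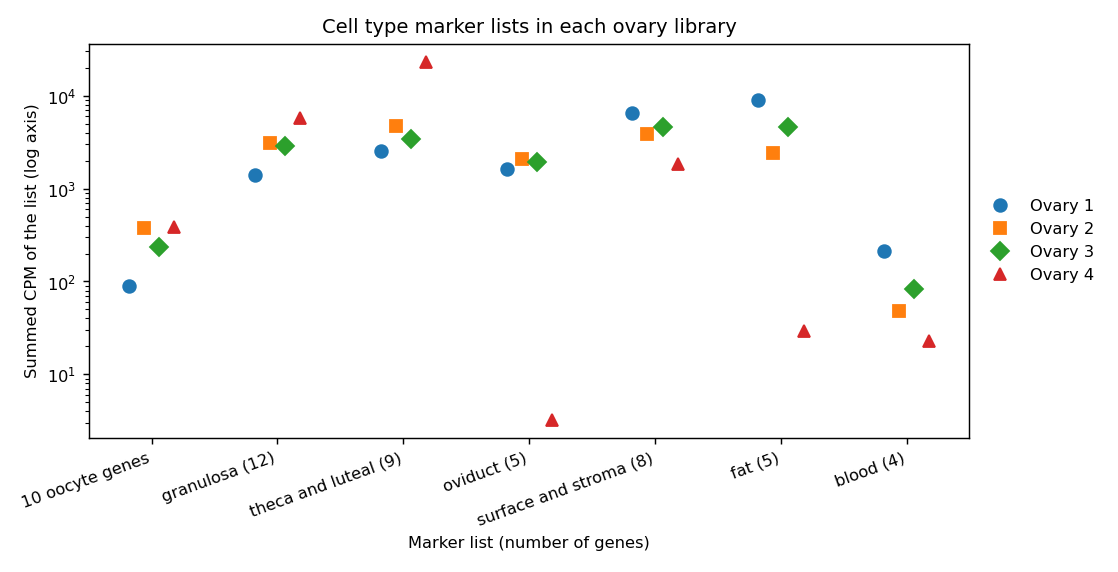
Summed CPM (log axis) of the oocyte genes and of 6 cell type marker lists, with 1 point for each of the 4 ovary libraries. The oocyte genes run from 90.1 to 389 CPM, lowest in library 1, while the oviduct and fat sums are far lower in library 4, at 3.23 and 29.7 CPM, than in the other 3.

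The 3 zona genes rose and fell together between ovary libraries. Zp1 (chromosome 19, 10914287 to 10920632, minus strand, 12 exon blocks), whose product links zona filaments to each other, stood at 6.79, 28.2, 18.5 and 30.7 CPM in ovary libraries 1 to 4. Zp2 (chromosome 7, 120126772 to 120145291, minus strand, 18 exon blocks), which encodes the glycoprotein that sperm bind, stood at 18.7, 81.5, 49.97 and 87.5 CPM. Zp3 (chromosome 5, 135980099 to 135988624, plus strand, 8 exon blocks), the partner of ZP2 in the filaments, stood at 11.99, 48.2, 31.5 and 52.4 CPM. In all 3, library 1 was lowest, library 3 came next, and libraries 2 and 4 were highest and close to each other. Their ratios to each other barely moved. Per kilobase of exon, Zp3 was 2.64, 2.56, 2.54 and 2.56 times the level of Zp1 in libraries 1 to 4, a mean of 2.57 ± 0.0453 (SD, n = 4). Zp3 was 1.32, 1.22, 1.30 and 1.23 times the level of Zp2 on the same scale.

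The growth factor genes followed the same order of libraries. Gdf9 (chromosome 11, 53431023 to 53437904, plus strand) stood at 18.6, 76.98, 50.5 and 78.8 CPM in ovary libraries 1 to 4. Bmp15 (chromosome X, 6314107 to 6320721, minus strand), its close relative, stood at 7.73, 36.7, 21.5 and 32.9 CPM. Their products act together on granulosa cells. Per kilobase, Gdf9 was 3.63, 3.16, 3.53 and 3.61 times the level of Bmp15, a mean of 3.48 ± 0.219 (SD, n = 4).

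Of the maternal complex genes, Nlrp5 (chromosome 7, 23385889 to 23441922, plus strand), also known as Mater, stood at 15.7, 61.4, 37.4 and 62.3 CPM in the 4 ovary libraries. Ooep (chromosome 9, 78376109 to 78378725, minus strand), also known as Floped, stood at 5.26, 18.1, 11.1 and 19.1 CPM. Per kilobase, Nlrp5 was 1.32 to 1.49 times the level of Ooep. Oosp1 (chromosome 19, 11667460 to 11691150, minus strand) stood at 2.15, 9.76, 6.87 and 9.25 CPM.

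The transcription factor genes lay lower. Nobox (chromosome 6, 43303674 to 43309554, minus strand) stood at 3.04, 13.9, 8.86 and 14.97 CPM. Figla (chromosome 6, 86016171 to 86020996, plus strand) stood at 0.1201, 0.949, 0.571 and 1.01 CPM, from 9, 63, 31 and 74 counts. Figla was the least abundant of the 10 and the only one under 100 counts in any ovary library. Its 8.44-fold span between libraries rests on the 9 counts of library 1.

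Ordered by mean level per kilobase of exon in ovary, the genes ran Gdf9 (27.7 CPM per kb), Zp3 (27.2), Zp2 (21.8), Zp1 (10.6), Nlrp5 (9.11), Bmp15 (8.08), Oosp1 (7.21), Ooep (6.27), Nobox (5.07) and Figla (0.793). The SD over the 4 libraries was 48.5% to 62% of the mean, and the ranges of neighbours overlapped but for Nobox and Figla. Compared inside each library, 6 of 9 neighbouring pairs kept 1 order in all 4 libraries. The other 3, Gdf9 and Zp3, Bmp15 and Oosp1, and Oosp1 and Ooep, held their order in 3 of 4. Gdf9 and Figla, the ends of the order, differed 34.9-fold by mean per kilobase.

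The 10 genes moved together between ovary libraries. Library 1 was lowest and library 3 second lowest in 10 of 10, and library 4 was highest in 8 and library 2 in 2 (Bmp15 and Oosp1). The highest library was 3.64 to 8.44 times the lowest, with a median of 4.53. The same ratio had a median of 1.53 over the 15738 genes at 1 CPM or more by ovary mean with a count in each ovary library, and 14.4% of those genes had a ratio as large as the smallest of the 10. Summed, the 10 genes stood at 90.1, 376, 237 and 389 CPM. As shares of that sum they were nearly constant: Zp2 made up 20.8%, 21.7%, 21.1% and 22.5% of it, and Gdf9 20.6%, 20.5%, 21.3% and 20.3%. The highest share of a gene was 1.05 to 1.96 times its lowest, with a median of 1.12, and the largest value was that of Figla. In bulk RNA, fewer oocytes and less RNA per oocyte cannot be told apart.

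**Figure D2:**
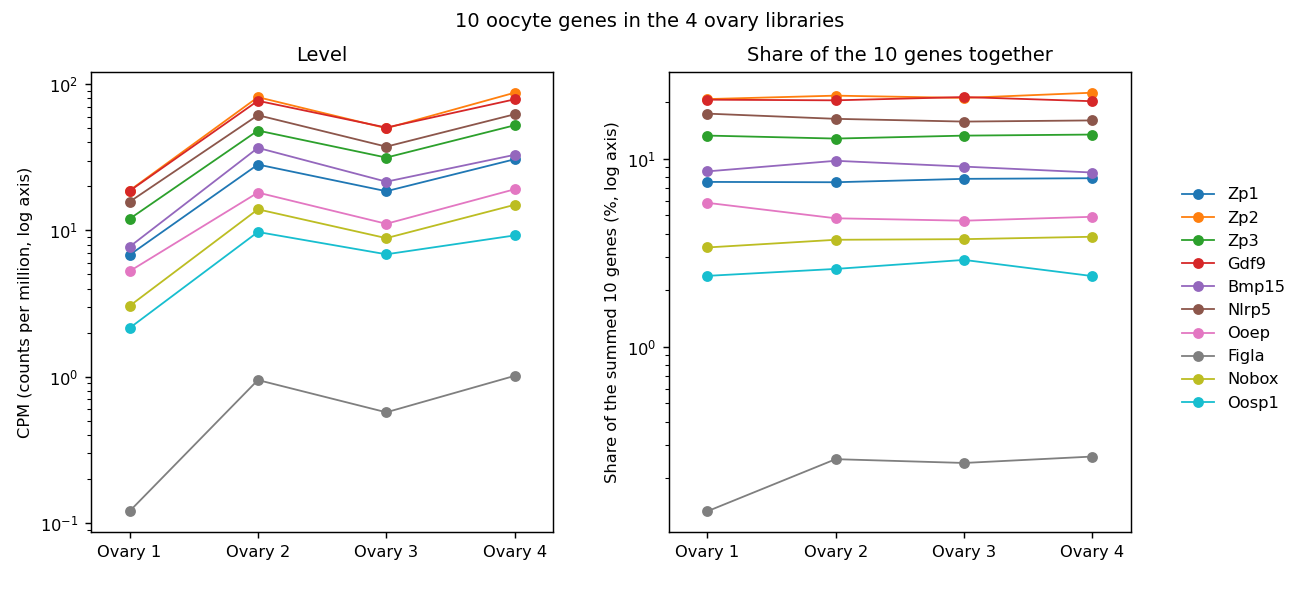
Left, CPM (log axis) of each of the 10 genes in the 4 ovary libraries; right, each gene's share in percent (log axis) of the sum of the 10, with lines joining the points of 1 gene. Levels span 3.64 to 8.44 times between libraries with library 1 lowest for every gene, while shares are near flat except for Figla in library 1.

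The order of libraries was shared with other oocyte genes and in part with granulosa genes. Library 1 lowest, library 3 next and libraries 2 and 4 above both was the order of 53 of 59 other oocyte genes, of 9 of 12 granulosa genes and of 3 of 9 theca and luteal genes. It was the order of 0 of 5 oviduct, 0 of 8 surface and stroma, 0 of 5 fat and 0 of 4 blood genes. Over the 15738 ovary genes above, 36.1% had it. The summed 10 genes were 6.39%, 12.2%, 8.19% and 6.83% of the granulosa sum in libraries 1 to 4, so relative to granulosa transcripts library 4 lay beside library 1 and not beside library 2. The part of the makeup of each piece of tissue in these differences was not tested.

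Promoter windows of 4 of the genes are printed because these genes rise and fall together between libraries and because FIGLA and NOBOX, 2 of the 10, are factors whose class of binding motif is known. The RefSeq table (GRCm38.p6, the assembly of mm10) held a window for 7 of the 10 genes, and none for Zp1, Zp2 and Gdf9. Shown are the 240 bases from 250 to 11 before the RefSeq start, 5′ to 3′ on the strand of the gene, for the 4 genes whose RefSeq and GENCODE starts lie within 10 bases of each other. Capitals mark matches to CANNTG, the E-box that basic helix-loop-helix factors bind, or to a homeodomain core, either TAATTA or, read on either strand, the word TAATTG. Both strands were searched and no printed match overlaps another. Nlrp5 has a second RefSeq start, whose window is not shown.
Zp3, chr5:135979855-135980094, plus strand: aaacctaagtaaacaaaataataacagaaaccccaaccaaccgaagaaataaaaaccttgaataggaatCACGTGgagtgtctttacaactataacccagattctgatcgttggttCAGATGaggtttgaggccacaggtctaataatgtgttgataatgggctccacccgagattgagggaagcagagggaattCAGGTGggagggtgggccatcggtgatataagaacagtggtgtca
Bmp15, chrX:6320735-6320974, minus strand: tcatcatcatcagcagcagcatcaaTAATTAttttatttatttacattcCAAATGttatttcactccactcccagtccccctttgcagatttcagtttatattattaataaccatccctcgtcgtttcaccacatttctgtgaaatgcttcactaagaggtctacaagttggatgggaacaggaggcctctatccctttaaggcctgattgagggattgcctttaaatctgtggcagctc
Nlrp5, chr7:23385639-23385878, plus strand: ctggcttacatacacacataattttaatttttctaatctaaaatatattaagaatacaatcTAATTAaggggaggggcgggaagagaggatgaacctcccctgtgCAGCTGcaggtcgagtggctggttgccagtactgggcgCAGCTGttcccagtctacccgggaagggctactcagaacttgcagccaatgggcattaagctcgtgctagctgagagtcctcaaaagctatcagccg
Nobox, chr6:43309565-43309804, minus strand: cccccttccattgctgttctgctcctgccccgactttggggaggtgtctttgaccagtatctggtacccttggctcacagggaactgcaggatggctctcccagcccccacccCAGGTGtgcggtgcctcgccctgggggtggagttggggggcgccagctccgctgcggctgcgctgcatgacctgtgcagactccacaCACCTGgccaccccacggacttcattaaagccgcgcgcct

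Every window held the E-box letters. Zp3 held CANNTG 3 times, beginning 181, 134 and 55 bases before the start, Nlrp5 and Nobox held it 2 times each and Bmp15 held it 1 time, beginning at 201. All 7 genes with a window had at least 1 CANNTG. That motif is common: 65.03% of the 32841 RefSeq windows of this length held it, and 30.3% held it 2 or more times. The narrower CAGGTG or CACCTG, found in Zp3 and 2 times in Nobox, was in 16.6% of windows. TAATTA was found in Bmp15 and Nlrp5, and 11.1% of windows held a homeodomain core. A match of letters is a description of the sequence and not a measured binding site.

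Ovary was the tissue with the highest mean of every one of the 10 genes. The lowest ovary library lay above the highest of the 44 other tissue libraries for 9 of 10, where 2.62% of 26242 tested genes do so, and Oosp1 was the exception. The mean in ovary was 2.54 to 295 times the mean of the next tissue, with a median of 26.8, and over the 26227 tested genes with a count in another tissue the median of that ratio was 0.357. In edgeR's quasi-likelihood test with Benjamini-Hochberg adjustment, all 10 were called higher in ovary than in the mean of the 11 other tissues at an adjusted p under 0.05 and 0 lower, where 32.4% of the tested genes were called higher and 23.2% lower. Against each tissue singly, 9 of 10 were called higher in all 11 comparisons, where 2.23% of tested genes were, and all 10 in each comparison but that with spleen. Nlrp5 and Figla reached at most 0.222 and 0.0308 CPM in any library of another tissue. Both passed the filter on low counts through their ovary libraries alone, so their calls are no independent support. The share of all tested genes called higher in ovary was 37% against brain, 30.4% against colon, 35.2% against heart, 31.2% against kidney, 38.3% against liver, 35.2% against LN, 27.2% against lung, 30.3% against skin, 37.5% against spleen, 32.3% against stomach and 34.6% against thymus. The labels do not say that the libraries of a tissue are separate animals, so these p-values measure the spread between libraries, which may be technical.

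For 3 genes no tissue was at 0 counts, and the fitted difference can be read as a fold. Gdf9 was higher in ovary than in the mean of the other tissues by 5.78 on the log2 scale (SE 0.20, adjusted p = 6.79e-25 by edgeR), Bmp15 by 7.67 (SE 0.26, adjusted p = 5.07e-25) and Nobox by 7.07 (SE 0.26, adjusted p = 7.37e-24). The other 7 had at least 1 tissue with no count, so that their fitted folds depend on the prior count and are not printed. Nlrp5 had no count in 8 of 11 tissues. Set against 3 counts over the 4 libraries of such a tissue, its ovary mean of 44.2 ± 22.2 CPM (SD, n = 4) was at least 4008-fold higher than in skin and at least 8352-fold higher than in kidney. Figla had no count in 7 of 11 tissues and its ovary mean of 0.663 ± 0.411 CPM was at least 60.2-fold (skin) to at least 91.1-fold (lung) higher than in those. With DESeq2, Figla was not called against brain (adjusted p = 0.149), LN (0.0610) or liver (0.0541), nor was Nlrp5 against thymus (0.126).

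Outside the ovary the genes parted ways, and the next tissue was not the same for all. Of 110 pairs of a gene and a non-ovary tissue, 21 had no count at all. Thymus was the only one of the 11 in which every one of the 10 genes had a count, for Figla by 1 count in library 4. Lung, kidney and brain each had a count of 9 of the 10.

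**Figure D3:**
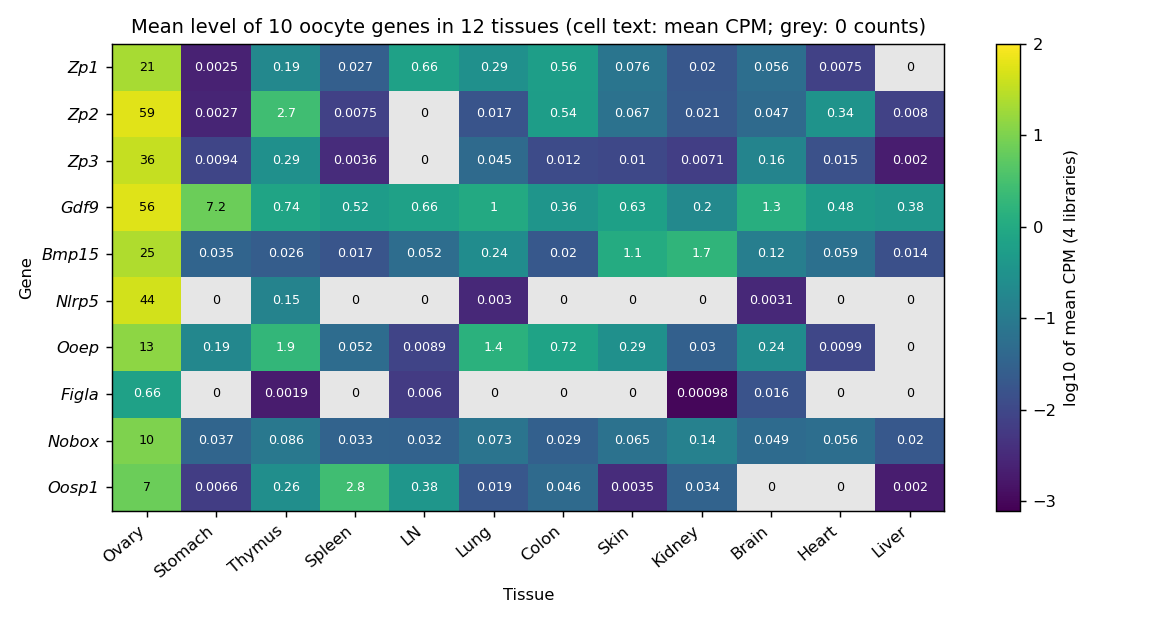
Mean CPM over 4 libraries of the 10 genes (rows) in 12 tissues (columns), coloured by its log10, with the mean written in each cell and grey cells for 0 counts. Ovary is the highest column for every gene, and the next highest cell lies in stomach for Gdf9, kidney for Bmp15, spleen for Oosp1 and thymus for Zp2, Zp3, Nlrp5 and Ooep.

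Among the zona genes, Zp2 was next highest in thymus, at 3.20, 2.00, 3.18 and 2.50 CPM in its 4 libraries. Zp2 was also read evenly in colon, at 0.555, 0.540, 0.537 and 0.547 CPM, and in heart, at 0.336 ± 0.0566 CPM (SD, n = 4). It had no count in LN, where a level of up to 0.00934 CPM is allowed by 3 counts over the group. These 3 tissues stood apart from each other and from the rest, since the library ranges of Zp2 in thymus, colon, heart and skin did not overlap. Zp1 instead was next highest in LN, at 0.423, 0.856, 0.565 and 0.805 CPM, and in colon, at 0.488, 0.679, 0.350 and 0.739 CPM, and those ranges overlapped. Zp3 was next highest in thymus, at 0.342, 0.197, 0.2997 and 0.306 CPM, and in brain, at 0.164, 0.116, 0.104 and 0.261 CPM, again with overlapping ranges. So the 3 zona genes, whose ratios were near constant in ovary, did not share their order of tissues outside it.

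Gdf9 was the only one of the 10 with counts in every tissue library, and its next tissue was stomach. There it stood at 13.8, 8.92, 1.47 and 4.62 CPM, from 1390, 800, 111 and 429 counts. The 4 stomach libraries thus spanned a wide range, yet all lay above every library of the other 10 non-ovary tissues. Gdf9 was higher in stomach than in the mean of those 10 by 4.13 on the log2 scale (SE 0.21, adjusted p = 7.33e-20 by edgeR). Brain came next at 1.27 ± 0.144 CPM and kidney was lowest at 0.196 ± 0.0382 CPM (SD, n = 4).

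Bmp15 was next highest in kidney, at 2.80, 1.29, 1.44 and 1.36 CPM, and then in skin, at 0.954, 0.952, 1.26 and 1.23 CPM. All kidney libraries lay above all skin libraries. Against the mean of the 10 other non-ovary tissues, Bmp15 was higher in kidney by 5.14 on the log2 scale (SE 0.30, adjusted p = 5.65e-18 by edgeR) and in skin by 3.76 (SE 0.33, adjusted p = 5.97e-13). The same comparison called Gdf9 lower in kidney, by -1.85 on the log2 scale (SE 0.36, edgeR, adjusted p = 3.02e-05). The pair of growth factor genes therefore took opposite directions in kidney, while their ratio in ovary varied little.

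In the maternal complex, Ooep was read in thymus at 2.16, 1.30, 2.37 and 1.70 CPM and in lung at 1.89, 1.19, 1.41 and 1.26 CPM, with overlapping ranges, and in colon at 0.716 ± 0.217 CPM (SD, n = 4). It had no count in liver. Nlrp5 was read in thymus alone beyond 1 count a tissue. Its 4 thymus libraries held 14, 12, 7 and 29 counts, or 0.191, 0.0815, 0.105 and 0.222 CPM, while brain and lung held 1 count each and 8 tissues none. Nlrp5 was called higher in thymus than in the mean of the 10 others (edgeR, adjusted p = 2.01e-08), and DESeq2 did not call it (adjusted p = 0.165).

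Oosp1 was the gene whose ovary level was least set apart. Spleen libraries held 3.299, 3.14, 2.80 and 1.80 CPM of Oosp1, and ovary library 1, at 2.15 CPM, lay among them, while the other 3 ovary libraries lay above all 4. Oosp1 was higher in ovary than in spleen by 1.01 on the log2 scale (SE 0.54) and not called (edgeR, adjusted p = 0.0957). Without ovary library 1 the difference was 1.32 (SE 0.55) and called by edgeR (adjusted p = 0.0368), and over all 14 alternatives the adjusted p ran from 0.0368 to 0.372, the highest value without ovary library 2. LN (0.376 ± 0.0771 CPM) and thymus (0.264 ± 0.0783 CPM, SD, n = 4) followed, with overlapping ranges. Spleen, LN and thymus, the next 3 tissues of Oosp1, are lymphoid organs.

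The transcription factor genes were read at low levels outside the ovary. Nobox was highest there in kidney at 0.141 ± 0.0158 CPM and lowest in liver at 0.0201 ± 0.0154 CPM (SD, n = 4), and each tissue's library range overlapped that of the next. Figla reached 0.0161 CPM in brain, from 6 counts over 4 libraries, and had at most 2 counts in any of the other 10 tissues. It was called higher in brain than in the mean of the 10 others (edgeR, adjusted p = 0.00107) but not by DESeq2 (adjusted p = 0.322). The level of Figla outside the ovary is at the limit of these depths.

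**Figure D4:**
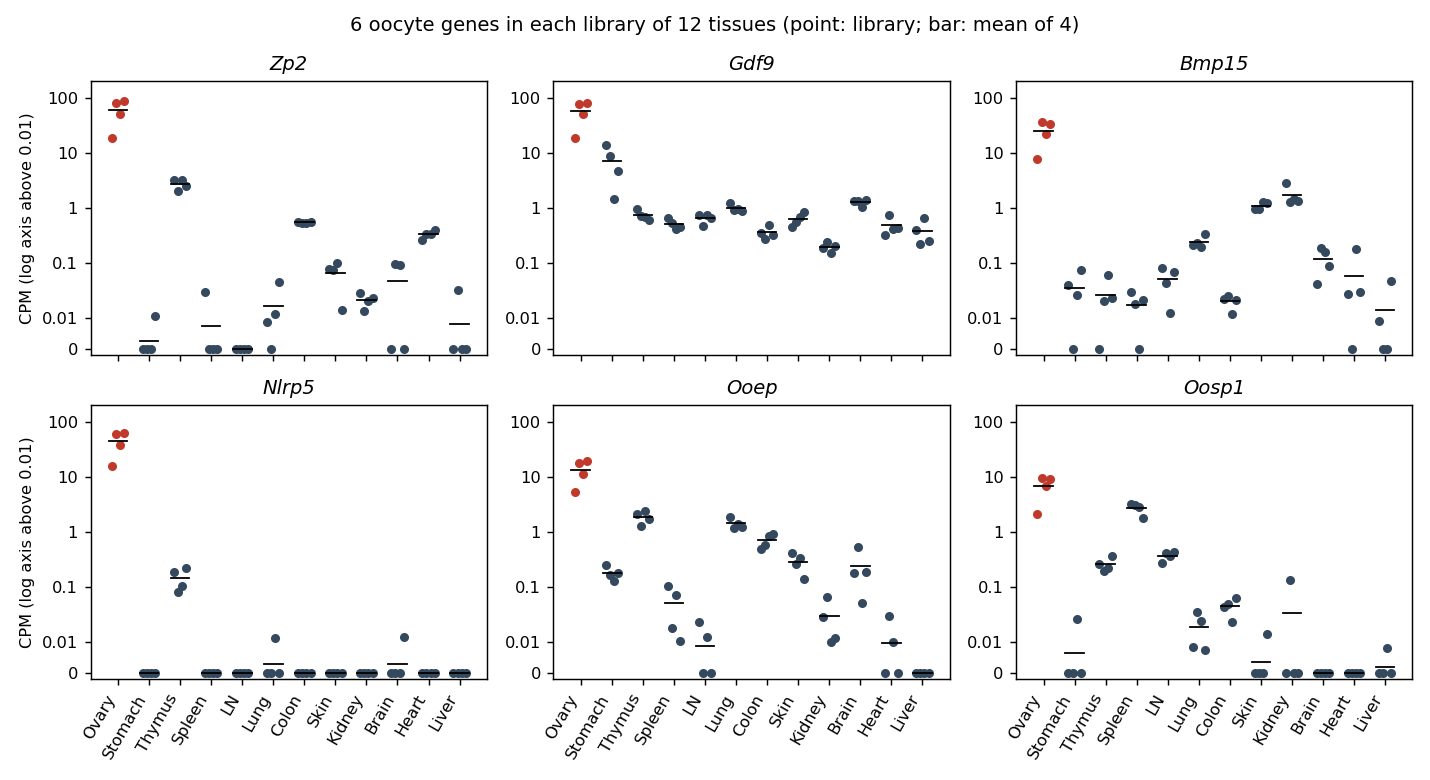
CPM of 6 of the genes in each of the 48 tissue libraries (log axis above 0.01, linear to 0 below it), 1 point a library, a bar at the mean of 4, and ovary in red. For 5 of them every ovary point lies above every other point, and for Oosp1 ovary library 1 at 2.15 CPM lies within the spleen points of 1.80 to 3.299 CPM.

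When each of the 11 other tissues was set against the mean of the remaining 10, 27 of the 110 pairs of gene and tissue were called higher (24.5%) and 11 lower (10%) by edgeR. Across these comparisons 28.4% to 40% of all tested genes were called higher and 23.8% to 35.8% lower by edgeR. Both shares of the 10 genes lay below those ranges, but 21 of the 110 pairs had no count. Low counts leave little room for a call, so the low shares are not read as a trait of the 10 genes. DESeq2 called 25 of the 110 pairs higher and 26 lower, so the count of lower calls rests on the tool. The shares of all tested genes called by DESeq2 are not given here. Thymus had the most, with 6 called higher (Zp1, Zp2, Zp3, Nlrp5, Ooep and Oosp1) and Bmp15 called lower. In thymus 40% of tested genes were called higher and 28.8% lower, the highest share of higher calls of the 11 tissues. Of the other oocyte genes, 36 of 58 tested were called higher in thymus and 3 lower. Liver had 0 of 10 called higher by edgeR, with a background of 28.4%, and 3 called lower (Zp1, Bmp15 and Ooep), with a background of 35.8%.

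The other 9 tissues had 1 to 4 of the 10 genes called higher. Brain had 4 (Zp3, Gdf9, Ooep and Figla) and 0 lower, against 36.4% and 35.2% of all tested genes. Lung had 4 (Zp1, Zp3, Bmp15 and Ooep) and 0 lower, against 32.1% and 25.5%. Colon had 3 (Zp1, Zp2 and Ooep) and 2 lower (Gdf9 and Bmp15), against 30.7% and 23.8%. In these 3 tissues Ooep, the maternal complex gene, was called higher each time. LN had 2 higher (Zp1 and Oosp1) and 2 lower (Zp2 and Zp3), against 32.9% and 28.7%, so that calls of zona genes went both ways there. Zp2 and Zp3 had 0 counts in LN. Zp3 also had only 1 to 4 counts a tissue in spleen, liver, stomach, skin, colon and kidney, so its lower call lies near the floor. Kidney had 2 higher (Bmp15 and Nobox) and 1 lower (Gdf9), against 31.9% and 25.5%. Skin had 2 higher (Bmp15 and Ooep), against 30.9% and 27.6%, and stomach 2 (Gdf9 and Ooep), against 33.5% and 25.7%. Neither had a gene called lower. Heart had 1 higher (Zp2), against 28.9% and 31.1%, and spleen had 1 higher (Oosp1) and 2 lower (Gdf9 and Bmp15), against 33.9% and 30.6%.

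Other oocyte genes, in 4 lists drawn up by function, gave the level of these 10 a setting. The lists were chosen with earlier results of these data known, and many of their genes passed the filter on low counts through ovary alone. Examples are Obox1, Obox2, Obox5, Nlrp2, Nlrp4a, Nlrp4b, Nlrp9a, Nlrp14, Oosp3, Oog3, Oog4 and Rfpl4. The calls of such genes, and the counts of calls that hold them, are no independent support. DESeq2 called 43 of the listed genes higher in ovary than in the mean of the 11 other tissues, and its share over all genes is not given here. By edgeR, 57 of 58 tested were called higher and 0 lower, where 32.4% of all tested genes were called higher and 23.2% lower. Of the transcription regulators 8 of 8 tested were called, of the maternal complex and Nlrp genes 14 of 14, of the secreted and surface genes 8 of 9 (not Cd9, a tetraspanin of the egg surface that many other cells make too) and of the RNA and chromatin genes 27 of 27. The most abundant of the maternal list were Zbed3 (62.1, 170, 122 and 167 CPM in ovary libraries 1 to 4) and Padi6 (27.2, 112, 72.2 and 124 CPM), which encodes a protein of the cytoplasmic lattices, followed by Nlrp14 and Tle6 with means of 64.7 and 52.7 CPM. Padi6 reached at most 0.433 CPM by mean in another tissue, and Zbed3 stood at 37.4 CPM in kidney.

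Among the transcription regulators, Taf4b led with a mean of 20.6 CPM in ovary but stood at 16.9 CPM in LN, and the homeobox genes Obox2, Obox5 and Obox1 followed at 8.08, 6.00 and 4.74 CPM, each under 0.01 CPM in every other tissue by mean. Kit, the oocyte receptor for KIT ligand from granulosa cells, and the gap junction gene Gja4 had the highest ovary means among the called genes of the secreted and surface list (Cd9, not called, stood at 112 CPM), but both had higher means in lung (231 and 52.2 CPM) than in ovary (87.5 and 20.6 CPM). Fbxw24 and Astl, the zona-cleaving ovastacin gene, followed with means of 17.7 and 11.9 CPM. In the RNA and chromatin list, Cpeb1, which controls stored messages, had a mean of 27.9 CPM in ovary and 54.4 CPM in brain. H1foo, the oocyte linker histone gene, Zar1 and Oas1e followed at 22.4, 18.4 and 16.01 CPM. Thymus was the highest other tissue of H1foo (0.529 CPM) and of Zar1 (2.70 CPM), as it was for 4 of the 10 genes.

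The genes whose pattern over the 48 tissue libraries was most like the mean of the 10 were Eif4e1b, Omt2b, Nlrp4e, Fbxw16, Fbxw26, Nlrp14, Kpna7 and Padi6. Likeness was Pearson's r of log2(CPM + 0.1) with the mean of that value over the 10 genes, among genes with at least 1 CPM by mean in ovary, and r was 0.988 for Eif4e1b and 0.981 for Padi6, the ends of these 8. The points are libraries of 12 tissues, so r mostly reflects the gap between ovary and the rest. Eif4e1b, an oocyte cap-binding protein gene, stood at 6.10, 26.1, 16.1 and 25.6 CPM in the ovary libraries and at most 0.202 CPM by mean elsewhere. Of the 8, 5 were already in the lists of other oocyte genes, and Eif4e1b, Fbxw16 and Fbxw26 were not.

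In cultured cells, 9 of the 10 genes were at or near 0, and Gdf9 was the exception. The lowest ovary library lay above the highest of the 57 cultured libraries for 10 of 10, where 16.4% of the genes tested in tissues do so. Zp2 and Oosp1 had 1 count each over all 57 libraries, Figla 2 and Nlrp5 4. Zp1 had 44 counts, Zp3 51, Ooep 57, Bmp15 33 and Nobox 20. Gdf9 had 1670 counts and at least 1 count in each of the 57 libraries, from 0.116 to 3.42 CPM.

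The low counts were uneven between lines. Zp1 had 41 counts over the 27 melanoma libraries, a pooled 0.0464 CPM (95% exact binomial interval 0.0333 to 0.0629), and 1 count over the 18 libraries of MCA101OVA and MC38 (interval 4.77e-05 to 0.0105 CPM). Ooep had 48 counts in the melanoma libraries (0.0543 CPM, 0.0400 to 0.0720) and 1 in the other 18. Zp3 had 31 and 2. Nobox went the other way, with 4 and 9 counts, as did Figla with 0 and 2 and Zp2 with 0 and 1. These intervals cover counting error alone. Gdf9 had a pooled 1.15 CPM in the melanoma libraries (1.08 to 1.22) and 0.309 CPM in MCA101OVA and MC38 (0.263 to 0.360), and 1.64 CPM in melanocytes (1.42 to 1.88). Bmp15 had 18 counts in the 5 melanocyte libraries, at least 1 in each, for a pooled 0.142 CPM (0.0840 to 0.224), and 14 counts in the 27 melanoma libraries, for 0.0158 CPM (0.00865 to 0.0266). B16 and MCA101OVA had libraries of the same run codes, 9 libraries a line. There Zp1 had 19 counts in B16 and 0 in MCA101OVA, Ooep 25 and 1, and Zp3 13 and 1. Gdf9 had a pooled 1.06 CPM in B16 and 0.294 CPM in MCA101OVA. B16OVA, MC38 and the melanocytes were not matched to those 2 lines in run codes. The part of run in the pooled values was not tested.

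The product of Setdb1 places a repressive methyl mark on histone H3 and keeps transposable elements silent, and the KO groups were set against Ctrl in each line. No member of the 10 was called in any line, in KO against Ctrl or in Ctrl against WT. Gdf9 was the only one to pass the filter on low counts, so the 10 were tested as 1. In B16 it stood at 1.56, 1.86 and 0.562 CPM in Ctrl and at 0.809, 1.63 and 0.430 CPM in KO. The groups overlapped, and the difference was -0.43 on the log2 scale (SE 0.63, edgeR, adjusted p = 1). In B16OVA Gdf9 ranged from 0.398 to 1.92 CPM with a median of 1.00 in Ctrl and from 0.428 to 1.54 CPM with a median of 1.39 in KO, a fitted difference of -0.01 on the log2 scale.

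In MCA101OVA Gdf9 stood at 0.263, 0.183 and 0.687 CPM in Ctrl and at 0.206, 0.141 and 0.447 CPM in KO, a difference of -0.59 on the log2 scale. In MC38 it stood at 0.579, 0.301 and 0.225 CPM in Ctrl and at 0.221, 0.318 and 0.116 CPM in KO, a difference of -0.80. The groups overlapped in each line, and by edgeR the adjusted p was 0.910 in MCA101OVA and 1 in the other 3 lines. The difference of B16OVA turned to 0.55 on the log2 scale without Ctrl library 2.

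Library numbers also tie the tumour libraries into sets of WT, Ctrl and KO, though in B16OVA not every pair of 1 set was alike. Within sets Gdf9 was lower in KO than in Ctrl in 3 of 3 sets of B16, 3 of 3 of MCA101OVA, 2 of 3 of MC38 and 1 of 6 of B16OVA. With the set as a block the difference was -0.48 on the log2 scale in B16 (SE 0.42, edgeR, adjusted p = 1), -0.59 in MCA101OVA (SE 0.52, adjusted p = 0.678), -0.77 in MC38 (SE 0.56, adjusted p = 1) and 0.08 in B16OVA (SE 0.31, adjusted p = 0.960). Gdf9 was thus not called in any line with or without the block. Of 16809 tested genes, the shares called higher in KO were 0.66% for B16, 0.994% for B16OVA, 0.339% for MCA101OVA and 0.464% for MC38, and 0.0297%, 0.0595%, 0.00595% and 0% lower. With the block these shares were 0.803%, 1.46%, 0.464% and 0.756% higher and 0.0654%, 0.119%, 0.0297% and 0.00595% lower. Ctrl against WT gave 0% in either direction in each line. Gdf9 also had 0 of 8 comparisons at an unadjusted p under 0.05 in edgeR, and DESeq2 called it in none.

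**Figure D5:**
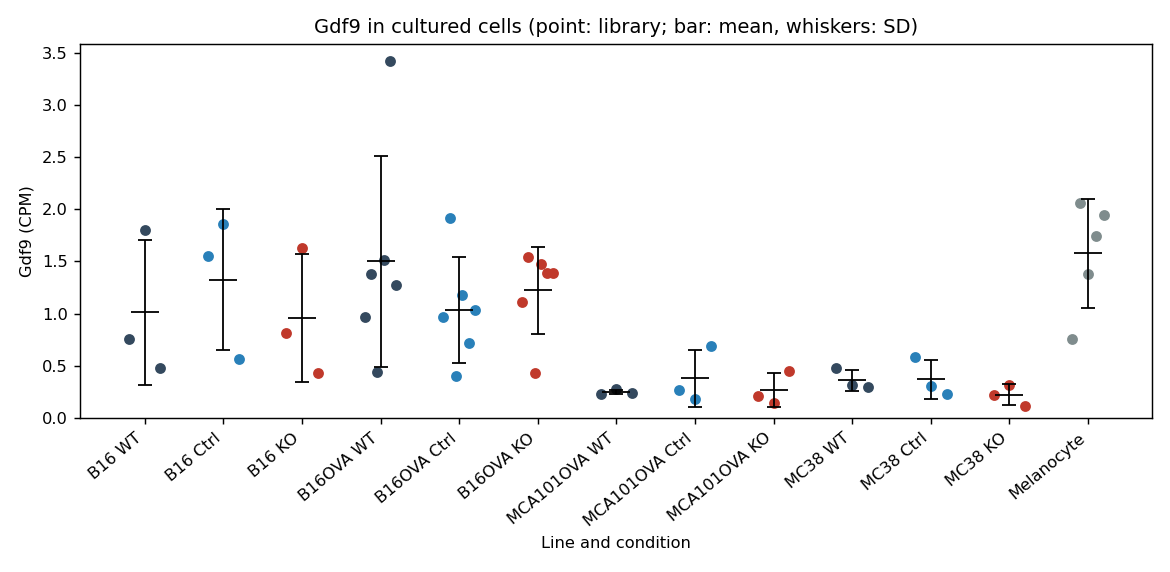
Gdf9 in CPM (linear axis from 0) in each library of the 4 tumour lines by condition and in melanocytes, 1 point a library, with the mean and SD of each group. Points of WT, Ctrl and KO overlap within each line, B16 and B16OVA groups have means of 0.957 to 1.499 CPM, and MCA101OVA and MC38 groups have means of 0.218 to 0.378 CPM.

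Without the filter all 10 genes could be tested in the 8 comparisons, and edgeR called 0 of 80, with 1 at an unadjusted p under 0.05. That 1 was Ooep in B16, with 17 counts over 3 Ctrl libraries and 2 over 3 KO libraries (edgeR, unadjusted p = 0.0146, adjusted p = 1). By condition over the 4 lines, with 15 libraries each, Zp3 had 10 counts in WT, 5 in Ctrl and 18 in KO, and Zp1 had 14, 10 and 18. Bmp15 had 5, 2 and 8, Ooep 12, 26 and 11, Nobox 7, 2 and 4, and Gdf9 423, 373 and 386. These counts are pooled over lines and not scaled for depth. Zp2, Figla and Oosp1 had 0 counts in KO, and Nlrp5 had 1. A group of 3 libraries allows 0.0243 to 0.0485 CPM at 3 counts in KO, so lower levels were not detectable at this depth. Of the 17 other oocyte genes that passed the filter, 1 was called in 1 of the 8 comparisons: Astl, the ovastacin gene, was higher in MC38 KO than in Ctrl by 3.19 on the log2 scale (SE 0.70, edgeR, adjusted p = 0.0174). It stood at 1.10, 0.545 and 0.524 CPM in KO and at 0.124, 0.0603 and 0.0376 CPM in Ctrl. The edgeR call was lost with no term for run (adjusted p = 0.0950) and without Ctrl library 2 (0.195), Ctrl library 3 (0.223) or KO library 1 (0.287), and the adjusted p ranged from 0.00438 to 0.287 over the alternatives. With the set as a block Gtsf1, a gene of the germline piRNA pathway named here after its values were seen, was also called, higher in MCA101OVA KO than in Ctrl by 2.50 on the log2 scale (SE 0.52, edgeR, adjusted p = 0.0352, and 0.0896 without the block). It stood at 2.02, 1.15 and 7.76 CPM in KO and at 0.351, 0.365 and 0.687 CPM in Ctrl.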

How the data were processed

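Values are whole-number counts per gene as deposited, 1 column a library. The submitters' processing notes name Trim Galore, FastQC, STAR, HTSeq and mm10, with strand setting and annotation not given in the sources used here. Per the labels' protocols the libraries were stranded and poly(A) selected. Symbols and coordinates come from GENCODE vM21 (mm10), and promoter windows from RefSeq. The members and lists were chosen with earlier results of these data known. All 10 members are named. Of each other oocyte list, the 4 called genes with the highest ovary mean are named, and the 8 genes most like the members.

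CPM values were computed from column totals. Tests used edgeR 4.0.16 (R 4.3.3) with TMM, filterByExpr by group, the quasi-likelihood test and a term for run code. The SE printed with an edgeR difference is an approximation. It is the size of the log2 difference divided by the square root of the F value of its test. Benjamini-Hochberg adjustment was over all genes tested, with the 48 tissue libraries in 1 fit and the 45 tumour libraries in another. Alternatives were DESeq2 1.42.0, other scaling, no filter, no run term, run D812 alone, a block by set of library numbers and libraries left out. Those without each stomach, kidney, spleen or thymus library were chosen after seeing the data. In tumour groups Gdf9 had as few as 14 counts over 3 libraries, in MC38 KO. The size of change detectable at such counts was not tested. Floors are 3 counts, and intervals and floors cover counting error only. Tumour libraries were tied into sets by library number within run. Deviations from group means correlated over 0.1 in 9 of 9 pairs of 1 set in B16, MCA101OVA and MC38 and in 15 of 18 in B16OVA. Pairs of different sets did so in 2 of 18, 3 of 18, 2 of 18 and 30 of 90. In B16OVA pairs of 1 set ran from -0.676 to 0.879, so its sets are less sure. Sets lie within runs, and the part of run in this likeness was not tested. Blocked values are given beside those without the block. None of 154 pairs of libraries within groups was identical. The check of the LN label against a marker is not reported here.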

Additional observations from a re-analysis of the deposited data

Results flagged for a closer look

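In 4 of 47 groups of 4 to 6 libraries 1 library lay far from the rest, and chance gives about 1 in 20 groups. They were kidney library 1 for Bmp15, at 2.80 CPM, lung library 3 for Zp3, at 0.0729 CPM from 6 counts, B16OVA WT library 5 for Gdf9, at 3.42 CPM, and ovary library 4 for the summed theca and luteal markers, at 23040 CPM. Libraries that entered no comparison between groups also held counts of the genes above the limit of 3, with no control samples to set them against. The 5 melanocyte libraries held 208 counts of Gdf9, 18 of Bmp15 and 7 of Zp3. The 7 tumour libraries of run B176 held 280 counts of Gdf9, 11 of Zp3, 8 of Ooep and 6 of Nobox.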

How the results depend on the processing

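Of 977 recomputed values, 957 kept their direction and their side of the threshold or stayed within the limits set for counts, 2 counts or ratios moved past those limits, 11 lost a call, 1 gained a call and 6 changed sign. All 6 were the uncalled Gdf9 difference of B16OVA KO against Ctrl, -0.01 on the log2 scale, which was 0.10 with no filter, 0.0103 with no run term, 0.0781 with the replicate block and -0.18 to 0.55 without single libraries (0.0020 and 0.55 without Ctrl library 1 or 2, 0.18 without KO library 3), and the cause was not tested. The 10 genes were called higher in ovary than in the mean of the other tissues under each alternative run. Lower calls among the 11 other tissues numbered 26 with DESeq2 against 11 with edgeR, and the cause was not tested. The median ratio of the highest to the lowest ovary library fell to 1.68 without ovary library 1, and leaving out each ovary library gave 1.68 to 4.53. The other oocyte genes called in ovary numbered 56 to 57 without single libraries and 43 with DESeq2. Tissue libraries of 1 set by library number had deviations correlated over 0.1 in 88 of 264 pairs (median 0.06), against 103 of 792 pairs of different sets (median -0.02). Most pairs of 1 set did not pass, so the sets were not taken as pairs. With a replicate block by set 10 genes were called in ovary against the mean of the other tissues, and Oosp1 against spleen had an adjusted p of 0.0627 (edgeR). Calls lost by single genes were Gdf9 in brain, Bmp15 in liver and Zp2 in LN in run D812 alone, Figla in brain and Nlrp5 in thymus with DESeq2, Gdf9 in spleen without spleen library 3 or 4, and Astl in MC38 as given above. Depth limits Figla and Nlrp5 outside the ovary and 9 of the 10 genes in cultured cells.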
